A study of Saccharomyces cerevisiae with 10 samples.

Results

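The peaks of the chromatin protein Swc4 in yeast without Eaf1, the scaffold of the histone acetyltransferase NuA4, were set against its peaks in yeast without Swr1, the ATPase of the histone exchange complex SWR1. A peak was shared when at least 1 bp of it lay in a peak of the other list and was otherwise found in 1 list only, and mitochondrial peaks were left out. The eaf1Δ list held 2937 peaks, 37 of them mitochondrial, and the swr1Δ list held 1262 peaks, 4 of them mitochondrial. Together they made up 4158 of the 9305 nuclear peaks in the 4 lists of the study. Of the eaf1Δ peaks, 1014 were shared and 1886 were eaf1Δ-only. Of the swr1Δ peaks, 1033 were shared and 225 were swr1Δ-only. The shared counts differ because 29 eaf1Δ peaks and 12 swr1Δ peaks overlapped more than 1 peak of the other list.

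Chromatin immunoprecipitation and sequencing with an antibody against c-Myc measured where Swc4 sits on DNA in Saccharomyces cerevisiae. The strains were eaf1Δ with SWC4-13MYC and swr1Δ with SWC4-13MYC, and, used below for orientation, yaf9Δ with SWC4-13MYC and wild type with SWC4-13MYC. All carried the same tagged Swc4, and all grew in YPD, a rich glucose medium, at 30 °C to mid-log phase. Each genotype had 2 repeats that the authors pooled into 1 peak list, and the labels do not say whether the repeats came from separate cultures. The comparison therefore lacks a measure of spread, and the genotypes were not tested against each other. Wild type without the tag was not analysed here, so unspecific signal was not measured and a peak means only that the authors' peak caller listed it.

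Swc4 is a subunit of both NuA4 and SWR1, and so is Yaf9. NuA4 acetylates the tails of histones H4 and H2A and is known at the promoters of active genes, those of ribosomal protein genes among them. SWR1 replaces H2A by the variant H2A.Z in the nucleosomes that flank the nucleosome-free region of a promoter. Eaf1 occurs in NuA4 and holds its modules together, and Swr1 occurs in SWR1 and drives the exchange, so each deletion removes the core of 1 of the complexes that share Swc4.

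The eaf1Δ peaks covered 13.9% of the nuclear genome and the swr1Δ peaks 5.12%. Of the lists used for orientation, wild type held 625 nuclear peaks and yaf9Δ 4522. Absence from the short wild-type list therefore does not show that a peak was gained in a mutant. Median peak width was 449.5 bp in eaf1Δ and 412 bp in swr1Δ. Sources used here name neither read totals nor the control and settings of the peak calls. Solved peak by peak from folds and p-values, the lowest background pileup came to 64.3 fragments per position in eaf1Δ and 54.4 in swr1Δ. Fold enrichment is the authors' ratio of signal at a summit to its local background, and it ranks peaks within a list but is no level that can be set against another list. Because the lists differ in length, many results are also given at equal length. There both lists have the length of the swr1Δ list, taking the eaf1Δ peaks of highest significance. Values without an equal-length counterpart are those of the full lists alone, and list length can affect them. Brackets hold exact Clopper-Pearson 95% intervals, which cover counting error only.

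Most swr1Δ peaks had a counterpart in eaf1Δ, and most eaf1Δ peaks had none in swr1Δ. The shared share was 35.0% of the eaf1Δ peaks (33.2–36.7) and 82.1% of the swr1Δ peaks (79.9–84.2). At equal length it was 42.0% of the eaf1Δ peaks (39.2–44.8) and 43.1% of the swr1Δ peaks (40.3–45.9), which leaves 730 eaf1Δ-only and 716 swr1Δ-only peaks. The asymmetry of the full lists was not present there, as lists of equal length allow little of it. For 491 swr1Δ peaks the only partner was an eaf1Δ peak ranked below the length of the swr1Δ list, at a median rank of 2094. Of these 491 peaks 331 had the summit in a gene body (67.4%). Peaks found in 1 list were seldom close misses. The nearest peak of the other list was more than 1000 bp away for 1449 eaf1Δ-only peaks (76.8%) and for 134 swr1Δ-only peaks (59.6%), and the smallest gap was 116 bp for eaf1Δ-only and 118 bp for swr1Δ-only peaks.

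Sharing changed with rank in eaf1Δ and much less in swr1Δ. Among the 250 eaf1Δ peaks of highest significance 67.6% had a swr1Δ counterpart (61.4–73.4), among the next 250 it was 47.6% (41.3–54.0), and from rank 751 on the bins lay between 26.0% and 34.4%. Among the 250 swr1Δ peaks of highest significance 78.4% had an eaf1Δ counterpart (72.8–83.3), and the following bins of 250 peaks lay between 78.8% and 89.2%. The makeup of the lists changed with rank as well. Summits in gene bodies made up 39.6% of the top eaf1Δ bin and 3.6% of the top swr1Δ bin, and 87.3% of the last eaf1Δ bin and 83.6% of the last full swr1Δ bin. At the point where the eaf1Δ list was cut, CSR2, MRPL38 and CAT5 lay just inside with −log10 q of 15.47, 15.46 and 15.44. Just outside were VNX1, RPL8B and MRS3 with −log10 q of 15.42, 15.42 and 15.41. The swr1Δ list ended at SLZ1, FIG2 and SED4 with −log10 q of 1.32, 1.32 and 1.31, so a cut at equal length is not a cut at equal significance.

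**Figure D1:**
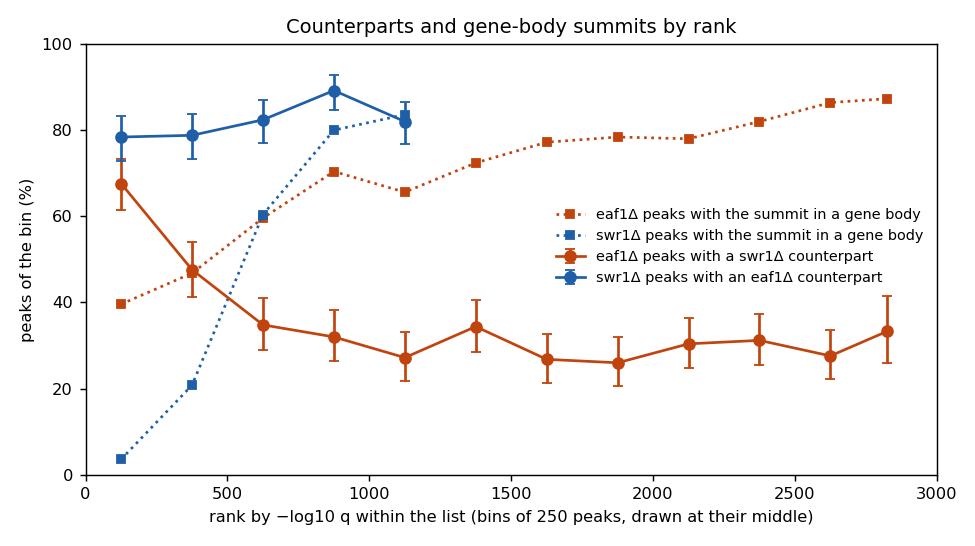
Share of peaks in each bin of 250 ranks (y axis, %) against rank by −log10 q within the list (x axis), for eaf1Δ and swr1Δ. Circles give peaks with a counterpart in the other list with 95% intervals, and squares give peaks with the summit in a gene body; sharing is 67.6% in the first eaf1Δ bin and 78.4% in the first swr1Δ bin, and gene bodies hold 39.6% of the summits in that eaf1Δ bin and 3.6% in that swr1Δ bin.

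Peaks of 1 list differed in where they lay. Gene body here means inside a gene and outside the 500 bp upstream of any start, so it includes summits just inside a gene. Of the eaf1Δ-only peaks 1462 had the summit in a gene body (77.5%, 75.6–79.4), against 109 of the swr1Δ-only peaks (48.4%, 41.8–55.2). Of the swr1Δ-only peaks 38 had the summit at promoters of ribosomal protein genes (16.9%, 12.2–22.4) and 30 at tRNA genes (13.3%, 9.18–18.5). Over all swr1Δ peaks the shares were 5.09% at ribosomal protein promoters, 9.54% at tRNA genes and 50.0% in gene bodies. Gene bodies were thus the largest class of the swr1Δ-only peaks too. Of the eaf1Δ-only peaks none had the summit at a ribosomal protein promoter, with an upper bound of 0.195%, and 1 had it at a tRNA gene. Promoters of other genes held 340 eaf1Δ-only summits (18.0%) and 32 swr1Δ-only summits (14.2%). Of the 1014 shared eaf1Δ peaks 560 had the summit in a gene body (55.2%), 83 at a tRNA gene (8.19%) and 23 at a ribosomal protein promoter (2.27%). At equal length the differences were smaller for gene bodies, with 69.3% of eaf1Δ-only (65.8–72.6) and 61.5% of swr1Δ-only summits (57.8–65.0). Ribosomal protein promoters then held 0 eaf1Δ-only and 47 swr1Δ-only summits (6.56%, 4.86–8.63), and tRNA genes held 1 eaf1Δ-only and 32 swr1Δ-only summits (4.47%, 3.08–6.25). The shared eaf1Δ peaks of equal length stood apart from both, with 38.6% of summits in gene bodies (34.5–42.9) and 15.5% at tRNA genes (12.5–18.9).

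**Figure D2:**
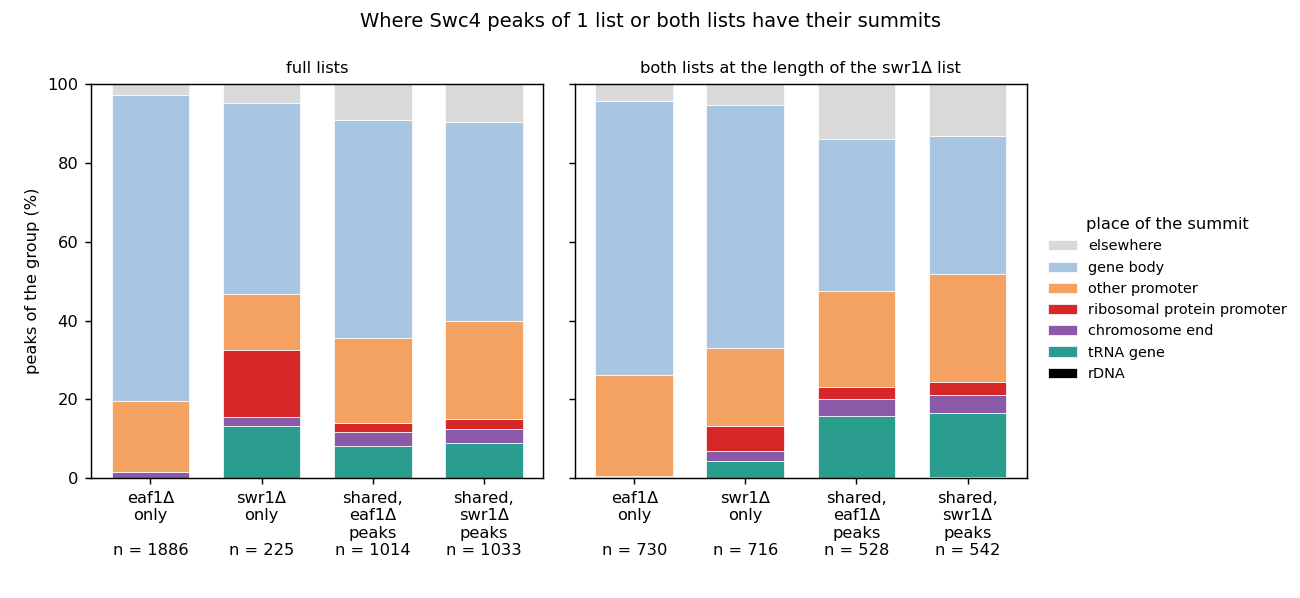
Stacked bars give the share of peaks (y axis, %) by place of the summit, for eaf1Δ-only, swr1Δ-only and shared peaks, with the full lists on the left and both lists at the length of the swr1Δ list on the right. Ribosomal protein promoters (red) and tRNA genes (green) take 16.9% and 13.3% of the 225 swr1Δ-only peaks in the full lists and are nearly missing from the eaf1Δ-only bars.

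The same can be read per place. Of the eaf1Δ peaks at tRNA genes 98.8% were shared (83 of 84), against 75.0% of the swr1Δ peaks there (90 of 120). All 23 eaf1Δ summits at ribosomal protein promoters were shared, against 26 of the 64 swr1Δ summits there (40.6%, 28.5–53.6). In gene bodies the order was the other way, with 27.7% of 2022 eaf1Δ peaks shared and 82.7% of 629 swr1Δ peaks. At other promoters 39.1% of 558 eaf1Δ peaks and 89.0% of 290 swr1Δ peaks were shared. At equal length the order held at tRNA genes, with 98.8% of eaf1Δ and 73.3% of swr1Δ peaks shared. It also held at ribosomal protein promoters, with all 15 eaf1Δ and 17 of 64 swr1Δ summits shared (26.6%). In gene bodies the shares were then close, at 28.7% of 710 eaf1Δ and 30.0% of 629 swr1Δ peaks. At other promoters they were 40.8% of 316 eaf1Δ and 51.4% of 290 swr1Δ peaks. In the full lists sharing per chromosome ran from 29.2% on chromosome I to 42.7% on chromosome V in eaf1Δ, and from 75.9% on chromosome II to 92.3% on chromosome I in swr1Δ.

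Around the starts of genes a larger share of eaf1Δ-only than of swr1Δ-only summits lay inside the gene. In the first 300 bp inside a protein-coding gene lay 35.0% of the eaf1Δ-only summits and 15.6% of the swr1Δ-only summits. Between 400 and 100 bp upstream of the start lay 6.79% of the eaf1Δ-only and 28.4% of the swr1Δ-only summits. The fullest 100 bp for eaf1Δ-only peaks was 100 to 200 bp inside the gene, with 301 of them (16.0%), and for swr1Δ-only peaks 200 to 300 bp upstream, with 33 of them (14.7%). Ribosomal protein and tRNA genes made up much of that upstream group. Without them 12.1% of 157 swr1Δ-only summits lay 400 to 100 bp upstream, against 6.74% of 1885 eaf1Δ-only summits. The inside shares were then 21.7% for swr1Δ-only and 35.1% for eaf1Δ-only peaks. At equal length the inside shares over all peaks were 47.3% for eaf1Δ-only and 21.1% for swr1Δ-only peaks, and the upstream shares 9.59% for eaf1Δ-only and 17.6% for swr1Δ-only peaks. Without those genes the inside shares at equal length were 47.3% for eaf1Δ-only and 23.4% for swr1Δ-only peaks, and the upstream shares were 9.47% for eaf1Δ-only and 11.3% for swr1Δ-only peaks. Between genes, the share of summits between divergent genes was 43.8% of 153 eaf1Δ-only and 45.0% of 100 swr1Δ-only peaks.

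**Figure D3:**
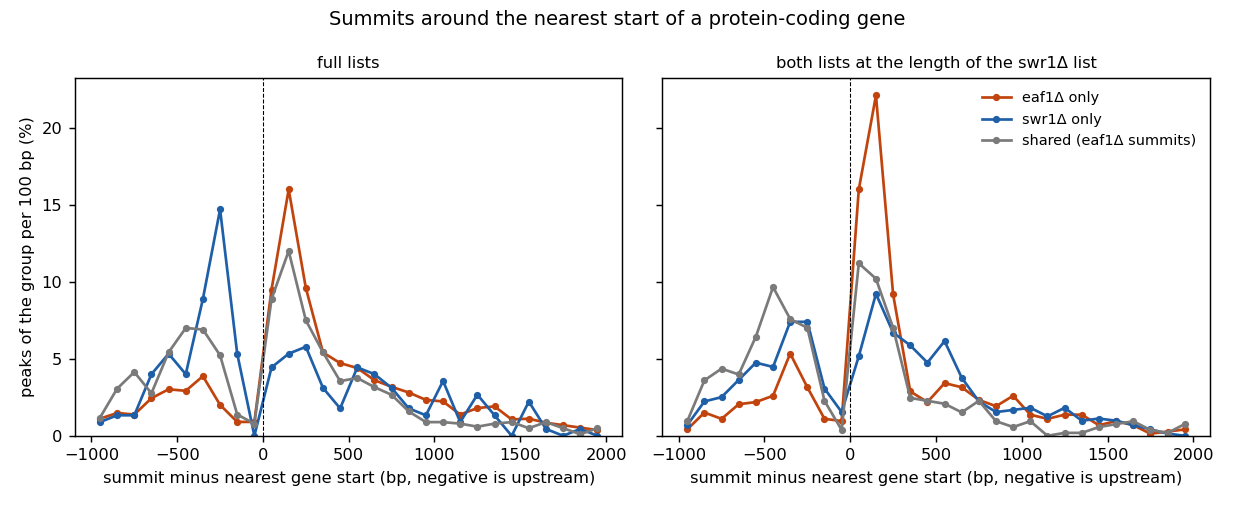
Percent of the peaks of each group per 100 bp (y axis) against the distance of the summit from the nearest start of a protein-coding gene (x axis, bp, negative is upstream), with the full lists on the left and equal length on the right. In the full lists eaf1Δ-only peaks reach 16.0% at 100 to 200 bp inside the gene and swr1Δ-only peaks 14.7% at 200 to 300 bp upstream.

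Ribosomal protein genes, which encode the parts of the cytoplasmic ribosome, were the group with the largest share of swr1Δ-only promoters among the gene lists described here. A peak overlapped the 500 bp upstream of the start of 29 of the 137 genes in both lists, of 4 in eaf1Δ only and of 59 in swr1Δ only, and 45 had none. These classes go by the 500 bp alone, and a peak of 1 list there can overlap a peak of the other list that lies outside them. That was the case for 5 of the 59 swr1Δ-only and 1 of the 4 eaf1Δ-only promoters, and over all genes for 35 of 193 swr1Δ-only and 172 of 1245 eaf1Δ-only promoters. Over all 6002 protein-coding genes the promoter had a peak in both lists for 14.5%, in eaf1Δ only for 20.7% and in swr1Δ only for 3.22%. Against this background 43.1% of ribosomal protein promoters were swr1Δ-only and 2.92% were eaf1Δ-only. Large and small subunit were alike in this, with 15 shared, 2 eaf1Δ-only and 34 swr1Δ-only promoters among 81 genes of the large subunit, and 14 shared, 2 eaf1Δ-only and 25 swr1Δ-only promoters among 56 genes of the small subunit. At equal length 19 promoters were in both lists, 1 in eaf1Δ only and 69 in swr1Δ only, where all genes had 9.53% in both, 10.7% in eaf1Δ only and 8.15% in swr1Δ only. Some of these promoters lie between neighbouring genes and share a peak, so the 59 swr1Δ-only promoters stand for 55 peaks.

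The swr1Δ-only promoters held some of the highest folds of the swr1Δ list. The median fold at the 59 promoters was 5.31, with a range of 1.35 to 9.88, where the median of all nuclear swr1Δ peaks was 1.69. At the 54 promoters whose swr1Δ peak overlapped no eaf1Δ peak the median was 5.35. RPS11B had fold 9.88 in swr1Δ (chromosome II, 332399–332883) and no eaf1Δ peak, with folds of 10.49 in yaf9Δ and 7.47 in wild type. RPL42B had fold 9.43 in swr1Δ (chromosome VIII, 382761–383232), with 11.57 in yaf9Δ and 5.89 in wild type. RPS21B had 8.26 and RPS23B 8.15, both without an eaf1Δ peak. At RPL24B the swr1Δ peak of fold 9.09 overlapped an eaf1Δ peak of fold 2.35 that lay outside the promoter, with the summits 8 bp apart. The swr1Δ peaks at RPL34A, RPS8A, RPS1A and RPS17A also overlapped eaf1Δ peaks, with summits between 442 and 530 bp apart. Most of the swr1Δ-only set was also on the other lists, since of the 59 promoters all had a yaf9Δ peak and 55 a wild-type peak. The 4 without a wild-type peak were RPL12B, RPL38, RPS29A and RPS18B, chosen for that after their values were seen. RPL21A, RPS19B and RPL2A had wild-type folds of 1.66, 1.45 and 1.26 beside swr1Δ folds of 6.7, 6.2 and 4.82.

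The 29 ribosomal protein promoters with a peak in both lists stood at different places within each list. Their eaf1Δ folds ran from 1.57 to 2.85 with a median of 2.19, and their swr1Δ folds from 1.28 to 12.46 with a median of 7.45. RPS23A had fold 2.79 at rank 441 in eaf1Δ and 12.46, the highest of the list, at rank 9 in swr1Δ. RPS0B had 2.85 at rank 397 in eaf1Δ and 8.67 at rank 34 in swr1Δ. RPL41B had 2.6 at rank 527 in eaf1Δ and 8.5 at rank 29 in swr1Δ. The contrast between kinds of locus can be read inside each list. Over the 23 overlapping pairs at ribosomal protein promoters the median fold was 2.2 in eaf1Δ, below the 2.59 of the 84 pairs at tRNA genes in that list. In swr1Δ the same pairs had a median of 7.54, above the 3.55 of the pairs at tRNA genes. A few of the 29 had low folds in both lists. RPL15B had 1.57 in eaf1Δ and 1.74 in swr1Δ, RPL21B had 1.62 in eaf1Δ and 1.84 in swr1Δ, and RPS9A had 1.92 in eaf1Δ and 1.28 in swr1Δ. The 4 eaf1Δ-only promoters were RPL8B (fold 1.99), RPS28A (1.88), RPS30A (1.72) and RPL1A (1.51). None of these 4 had its summit within the promoter or a wild-type peak, and all had a yaf9Δ peak. The RPL8B peak overlapped a swr1Δ peak outside the promoter (fold 1.72) with the summit at the same base, and the other 3 overlapped none.

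**Figure D4:**
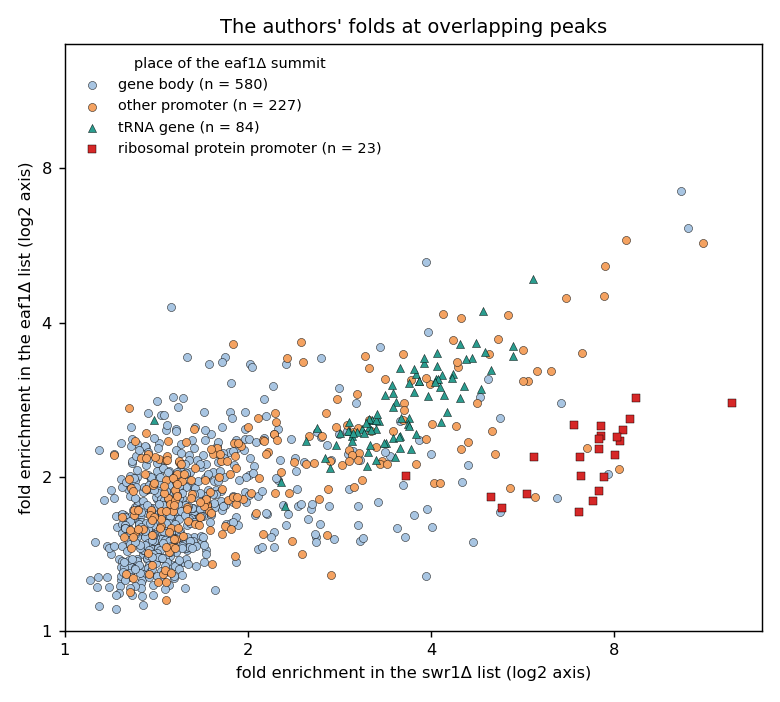
Fold enrichment in the eaf1Δ list (y axis) against that in the swr1Δ list (x axis) for overlapping peaks, both on log2 axes, coloured by the place of the eaf1Δ summit; pairs at chromosome ends, in the rDNA and elsewhere are not drawn. The 23 pairs at ribosomal protein promoters have a median of 2.2 in eaf1Δ and 7.54 in swr1Δ, while the 84 pairs at tRNA genes have 2.59 in eaf1Δ and 3.55 in swr1Δ.

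tRNA genes, the short genes that RNA polymerase III transcribes from an internal promoter, had a peak in both lists more often than in either list alone. Counting peaks up to 100 bp from the gene, 107 of 275 nuclear tRNA genes had one in both lists, 5 in eaf1Δ only and 33 in swr1Δ only, and 130 had none. At equal length 103 were in both lists, 3 in eaf1Δ only and 37 in swr1Δ only. At the 84 overlapping pairs with the eaf1Δ summit at a tRNA gene the summits lay a median of 12 bp apart, against 40.5 bp over the 580 pairs in gene bodies. All 107 shared genes had a yaf9Δ peak and 54 had a wild-type peak.

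Among the shared genes, SUF8, a gene of a frameshift suppressor tRNA, had fold 4.86 in eaf1Δ and 5.89 in swr1Δ (swr1Δ peak on chromosome VIII, 388771–389128), and no wild-type peak. IMT1, a gene of the initiator methionine tRNA, had 4.21 in eaf1Δ and 4.87 in swr1Δ, also without a wild-type peak. IMT4, another initiator gene, had 3.17 in eaf1Δ and 4.34 in swr1Δ, with 3.08 in wild type. The swr1Δ-only genes ranked between 173 and 557 in the swr1Δ list, apart from YNCP0019W at rank 1181. The swr1Δ peaks at YNCP0019W and YNCL0009C overlapped eaf1Δ peaks outside the 100 bp. YNCE0028C had the highest significance among them, with fold 3.35 at rank 173, then SUF23 with 3.37 at rank 212 and SUF17 with 3.19 at rank 227. YNCI0003C had the highest fold, 4.3. Of the 33 genes 28 had a yaf9Δ peak and 6 a wild-type peak, so unlike the ribosomal protein promoters most of them were absent from the wild-type list. Of the 5 eaf1Δ-only genes YNCK0019W stood highest, with fold 2.36 at rank 151. The other 4 were YNCL0032C, YNCJ0015W, YNCO0018W and YNCD0019C, with folds of 2.34, 2.25, 1.97 and 1.44. The wild-type list lacked all 5, and the yaf9Δ list had 2. tRNA genes come in near-identical copies, so which copy gave the reads is uncertain.

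Some other RNA genes and sites of the polymerase III machinery were shared too. SCR1, which gives the signal recognition particle its RNA, had fold 3.09 in eaf1Δ and 3.7 in swr1Δ. RPR1, which encodes the RNase P RNA, had 3.26 in eaf1Δ and 3.48 in swr1Δ. ZOD1, a site bound by the polymerase III factor TFIIIC, had 2.83 in eaf1Δ and 2.8 in swr1Δ. SNR52, a snoRNA gene with a polymerase III promoter, had a peak in swr1Δ only (3.63), and SNR6, the U6 RNA gene, had none in either list. Over the 82 genes of snoRNAs, most of which guide the modification of rRNA, and of snRNAs, which act in splicing, 4 had a peak in both lists, 7 in eaf1Δ only and 3 in swr1Δ only. In all, 11 of them (13.4%) had an eaf1Δ peak and 7 (8.54%) a swr1Δ peak, where tRNA genes had 40.7% in eaf1Δ and 50.9% in swr1Δ. The eaf1Δ-only snoRNA and snRNA genes were LSR1, the U2 RNA (fold 2.09, rank 23), SNR8 (2.06, rank 49), SNR81, SNR85, SNR45, SNR17A, a U3 gene, and SNR30. The swr1Δ-only ones besides SNR52 were SNR58 (1.73) and SNR18 (1.19).

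Chromosome ends had peaks in both lists on most arms. In the outermost 10 kb, 26 of the 32 arms had a peak in both lists, 1 in eaf1Δ only, 3 in swr1Δ only and 2 in neither. How often stretches of 10 kb elsewhere held peaks of both lists was not counted, so these counts do not set chromosome ends apart. The arm with eaf1Δ peaks only was II right, near PAU24 (fold 2.2). The arms with swr1Δ peaks only were IX left near YIL177C (fold 6.3), XV right near YRF1-8 (3.74) and XII right near YRF1-5 (2.49). YRF1 genes encode helicases of the subtelomeric Y′ repeats. At equal length 24 arms had both, and VII left and VIII left joined the swr1Δ-only arms. Peak by peak the overlap in the full lists was lower in eaf1Δ, where 36 of 65 end peaks were shared (55.4%, 42.5–67.7), than in swr1Δ, where 37 of 42 were (88.1%, 74.4–96.0). At equal length the order was reversed, with 24 of 27 eaf1Δ (88.9%, 70.8–97.6) and 25 of 42 swr1Δ end peaks shared (59.5%, 43.3–74.4). The 29 eaf1Δ-only end peaks of the full lists had folds of at most 2.25, and 1 of them had a wild-type peak. The PAU and COS families lie near the ends, with PAU genes coding for small cell wall mannoproteins. Of 38 genes of the COS, PAU and DAN/TIR families 3 had a promoter peak in both lists (7.89%), 14 in eaf1Δ only (36.8%) and 0 in swr1Δ only. All genes had 14.5% in both, 20.7% in eaf1Δ only and 3.22% in swr1Δ only. At equal length 0 were in both lists, 3 in eaf1Δ only (7.89%, against 10.7% of all genes) and 3 in swr1Δ only (7.89%, against 8.15%). Most of the eaf1Δ-only peaks here thus lay below the rank of the cut. At PAU8, PAU13 and PAU20, 3 of the 14, the eaf1Δ peak overlapped a swr1Δ peak outside the promoter. In the rDNA, the most significant peak of both lists was the same place at YLR154C-G, with fold 3.09 in eaf1Δ (chromosome XII, 459499–460824) and 2.85 in swr1Δ (459589–460773). A further eaf1Δ peak there, at 468712–469014 with fold 3.02, had no swr1Δ counterpart. Subtelomeric and rDNA sequence is repeated, and reads of different copies cannot be told apart there.

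The eaf1Δ-only peaks of highest significance lay mostly in the bodies of genes. SED1, which encodes an abundant cell wall protein, held the first of them at rank 4 (chromosome IV, 600758–601893, fold 3.11). PMA1, the plasma membrane proton pump, followed at rank 11 (chromosome VII, 480013–480316, fold 2.09). HXK1, a hexokinase, had fold 4.44 at rank 17 (chromosome VI, 253494–254780). None of these 3 overlapped a wild-type peak, and all 3 overlapped a yaf9Δ peak. AHP1, a thiol peroxidase, had fold 2.29, and NCE102, a protein of the membrane domains called eisosomes, had 2.86. By fold, the highest was a peak in RIM4, a regulator of meiosis, with 4.87 (chromosome VIII, 57840–58764). HXT7, a high-affinity glucose transporter, came next with 4.64 (chromosome IV, 1154071–1154509), followed by another peak in RIM4 with 4.61 (56578–57147), HXK1 and MRPL23, a mitochondrial ribosomal protein, with 4.37. The HXT7 peak was absent from the yaf9Δ and wild-type lists alike. TSL1, a subunit of trehalose synthase, had 3.46, with the summit 3069 bp from the nearest gene start. TSL1 and PMA1 also held shared eaf1Δ peaks. At TSL1 the folds were 4.29 in eaf1Δ and 1.49 in swr1Δ with the summits 2704 bp apart, and at PMA1 1.49 in eaf1Δ and 1.12 in swr1Δ.

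Shared peaks included the strongest of both lists outside ribosomal protein genes. YPR064W had fold 7.22 in eaf1Δ, the highest of that list, and 10.3 in swr1Δ. YDR010C had 6.12 in eaf1Δ and 10.58 in swr1Δ, and the promoter of ENV9 had 5.72 in eaf1Δ and 11.2 in swr1Δ. TEC1, a transcription factor of filamentous growth, had 5.16 in eaf1Δ and 7.72 in swr1Δ. GIC2, an effector of the polarity GTPase Cdc42, had 4.51 in eaf1Δ and 7.69 in swr1Δ. The peak near AGP1, an amino acid permease, had 5.52 in eaf1Δ and 8.96 in swr1Δ. All of these had wild-type and yaf9Δ peaks. Over the 1045 overlapping pairs the summits lay a median of 28 bp apart, and 720 pairs (68.9%) were within 100 bp.

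SWR1 subunit genes with a promoter peak were mostly eaf1Δ-only. Of 14 SWR1 subunit genes 1 had a promoter peak in both lists, 9 in eaf1Δ only and 1 in swr1Δ only. Thus 64.3% were eaf1Δ-only, where all genes had 20.7%. This share includes SWR1, which is deleted in swr1Δ, and SWC4, the tagged gene. At equal length 1 had both, 5 were eaf1Δ-only (35.7%, against 10.7% of all genes) and 1 was swr1Δ-only. VPS71 was the shared one, with 3.26 in eaf1Δ and 3.55 in swr1Δ. The eaf1Δ-only genes were SWC4 (2.76), YAF9 (2.34), RVB2 (2.24), SWR1 (2.19), RVB1 (2.18), VPS72 (2.05), ARP6 (1.73), SWC7 (1.49) and SWC3 (1.28). At BDF1, which encodes a bromodomain protein, the promoter had a swr1Δ peak only (1.27), but that peak overlapped an eaf1Δ peak outside the promoter (1.89) with the summits 18 bp apart. Of 13 NuA4 subunit genes, which include SWC4 and YAF9, 8 had no promoter peak, a share near that of all genes (3696 of 6002). A further 3 were eaf1Δ-only (23.1%, against 20.7% of all genes) and 2 were swr1Δ-only (15.4%, against 3.22%). Besides SWC4 and YAF9, EAF3 was eaf1Δ-only (1.95) and EPL1 (1.61) and EAF1 (1.38) were swr1Δ-only. Each deleted gene thus lacked a promoter peak in the list of its own deletion strain and had one in the other, for SWR1 at chromosome IV, 1135708–1136120, in eaf1Δ and for EAF1 at chromosome IV, 1194958–1195374, in swr1Δ. SWR1 also had a wild-type peak (3.24), and EAF1 had none. The labels do not say how much of either locus the deletions left, and neither list had a summit within either gene, so the peaks do not check the genotypes.

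Genes of sugar use differed among themselves. Of the 7 galactose genes GAL80, which encodes the repressor, had a promoter peak in both lists (1.66 in eaf1Δ and 1.3 in swr1Δ). Another 5 were eaf1Δ-only (71.4%, against 20.7% of all genes). These were GAL1 and GAL10, the kinase and epimerase genes that share a promoter and 1 peak (3.22, chromosome II, 278443–278820), GAL2, the galactose permease (3.02), GAL3 (1.7) and GAL4, the activator (1.66). At equal length 3 of the 5 were left, 42.9% of the 7 genes against 10.7% of all genes. All 5 had yaf9Δ peaks and none a wild-type peak, and the cells grew in glucose. Of 19 hexose transport genes 5 were shared (26.3%, against 14.5% of all genes) and 3 were eaf1Δ-only (15.8%, against 20.7%). HXT3 had 2.7 in eaf1Δ and 3.61 in swr1Δ, and HXT7 was in eaf1Δ only (2.28 at its promoter). Summits in the body of a hexose transport gene were found in 8 genes in eaf1Δ (42.1%, against 34.9% of all protein-coding genes) and 0 in swr1Δ (against 11.6%). At equal length the eaf1Δ count was 2 (10.5%, against 14.2% of all protein-coding genes). Of 25 genes of glycolysis and fermentation 8 were shared (32.0%, against 14.5% of all genes), 1 was eaf1Δ-only and 3 were swr1Δ-only. The swr1Δ-only genes were PGK1 (3.17), PGI1 (1.5) and ENO2 (1.44), and the eaf1Δ-only gene was HXK1 (3.25). The peaks at PGI1 and at the HXK1 promoter overlapped peaks of the other list outside the promoter.

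Cell wall and membrane genes were covered widely. Of 28 genes 13 were shared, 9 eaf1Δ-only and 1 swr1Δ-only, so 78.6% had a promoter peak in eaf1Δ and 50.0% in swr1Δ, where all genes had 35.2% in eaf1Δ and 17.7% in swr1Δ. At equal length the eaf1Δ share was 67.9%, where all genes had 20.2%. Summits within the genes were found in 22 in eaf1Δ (78.6%, against 34.9% of all genes) and 8 in swr1Δ (28.6%, against 11.6%). CWP2, a wall mannoprotein, had 1.82 in eaf1Δ and 5.93 in swr1Δ, in overlapping peaks with the summits 622 bp apart. Near CCW12 a peak upstream, toward YLR112W, had 3.28 in eaf1Δ and 4.42 in swr1Δ. CWP1 was eaf1Δ-only (3.5), and TIP1 was swr1Δ-only (1.94). Upstream of SED1 both lists had a peak, with folds of 3.18 in eaf1Δ and 3.32 in swr1Δ (swr1Δ peak at 599907–600359) and the summits 4 bp apart, beside the eaf1Δ-only peak over the gene.

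**Figure D5:**
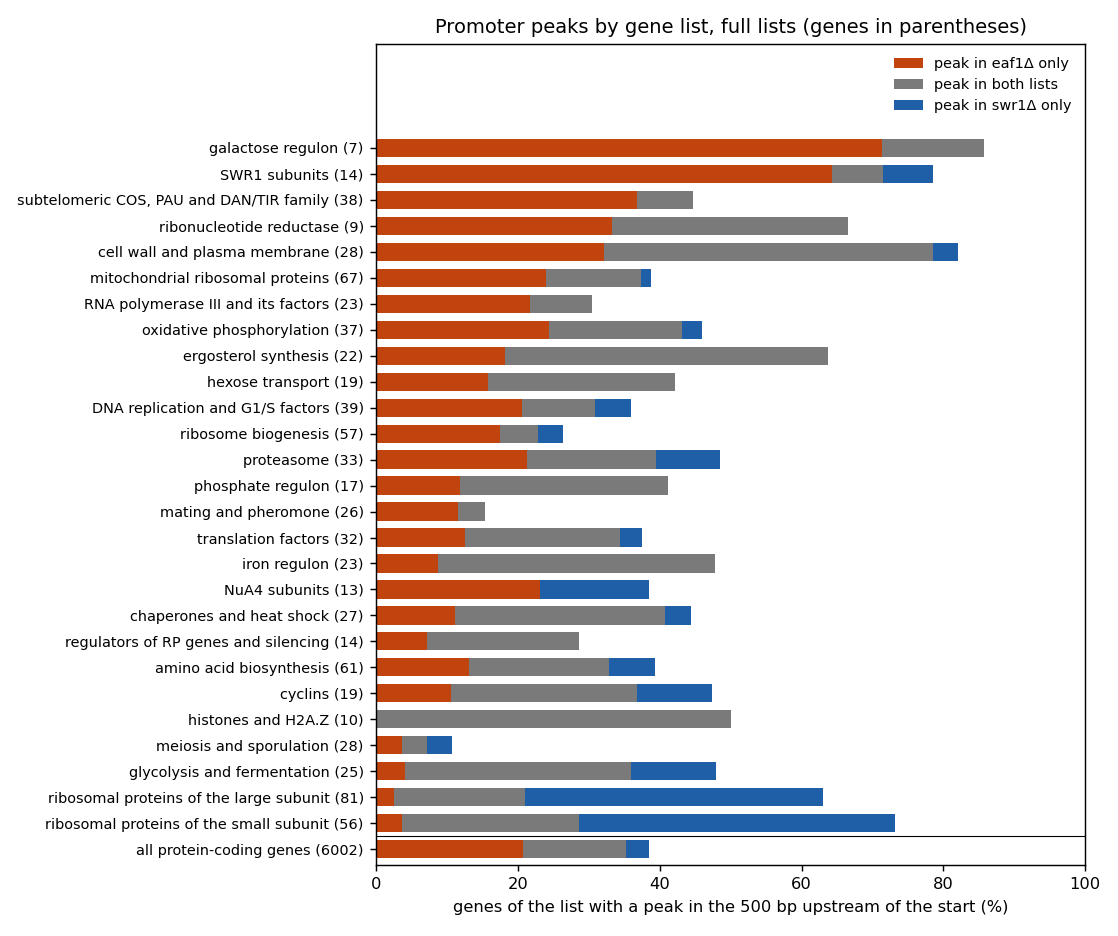
Percent of the genes of each list (x axis) with a peak in the 500 bp upstream of the start, for eaf1Δ only, both lists and swr1Δ only, in the full lists; list sizes are in parentheses and the bottom bar gives all 6002 protein-coding genes. The swr1Δ-only part (blue) is widest for ribosomal protein genes, at 42.0% of the large and 44.6% of the small subunit, where all genes have 3.22%.

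Ergosterol synthesis and the iron and phosphate regulons had larger shares of shared promoters than all genes, of which 14.5% were shared, 20.7% eaf1Δ-only and 3.22% swr1Δ-only. Ergosterol synthesis, the sterol pathway of fungi, had 10 of 22 genes shared (45.5%), 4 eaf1Δ-only and 0 swr1Δ-only. At equal length 7 were shared (31.8%, against 9.53% of all genes), 1 was eaf1Δ-only and 3 were swr1Δ-only. ERG11 had 3.6 in eaf1Δ and 5.58 in swr1Δ, ERG3 had 4.15 in eaf1Δ and 5.35 in swr1Δ, and ERG6 had 2.52 in eaf1Δ and 4.38 in swr1Δ. The iron regulon had 9 of 23 genes shared (39.1%) and 2 eaf1Δ-only, and at equal length 5 shared (21.7%), 0 eaf1Δ-only and 4 swr1Δ-only. AFT1, its activator, had 1.65 in eaf1Δ and 2.54 in swr1Δ, and FTR1, the iron permease, had 1.53 in eaf1Δ and 3.62 in swr1Δ. The phosphate regulon had 5 of 17 shared (29.4%) and 2 eaf1Δ-only. PHM8 had 2.02 in eaf1Δ and 7.8 in swr1Δ, in overlapping peaks with the summits 469 bp apart. PHO5, the secreted acid phosphatase gene, was eaf1Δ-only (2.5). Amino acid biosynthesis lay nearer to all genes, with 12 of 61 genes shared (19.7%), 8 eaf1Δ-only (13.1%) and 4 swr1Δ-only (6.56%), and with LYS20 at 2.22 in eaf1Δ and 5.09 in swr1Δ. At equal length its shares were 11.5% shared, 4.92% eaf1Δ-only and 14.8% swr1Δ-only, where all genes had 9.53%, 10.7% and 8.15%. Its strongest swr1Δ-only promoter, SER1 (6.99), shares its peak with RPS30B.

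Cell cycle and stress genes had members in each class. Of 19 cyclin genes 5 were shared (26.3%), 2 eaf1Δ-only (10.5%) and 2 swr1Δ-only (10.5%), where all genes had 14.5%, 20.7% and 3.22%. At equal length 3 were shared (15.8%), 2 eaf1Δ-only (10.5%) and 4 swr1Δ-only (21.1%), where all genes had 9.53%, 10.7% and 8.15%. The G1 cyclins CLN1 and CLN2 had 2.61 and 3.49 in eaf1Δ, and 3.57 and 7.07 in swr1Δ. PCL1 had 3.07 in eaf1Δ and 5.77 in swr1Δ, CLN3 was eaf1Δ-only (2.47) and the S-phase cyclin CLB6 was swr1Δ-only (2.38). Of 39 genes of DNA replication and the G1/S switch 4 were shared (10.3%), 8 eaf1Δ-only (20.5%) and 2 swr1Δ-only (5.13%), shares near those of all genes. The swr1Δ-only genes were YHP1 (4.24) and TOS4, whose peak (7.2) is also that of RPL37A. Of 27 chaperone genes 8 were shared (29.6%), 3 eaf1Δ-only (11.1%) and 1 swr1Δ-only (3.7%), and at equal length 6 were shared, 1 eaf1Δ-only and 3 swr1Δ-only. HSP42, a small heat shock protein, had 2.79 in eaf1Δ and 6.52 in swr1Δ, in overlapping peaks with the summits 369 bp apart. BTN2, which sorts misfolded proteins, had 2.07 in eaf1Δ and 8.14 in swr1Δ. SSA1, a cytosolic Hsp70, was eaf1Δ-only at its promoter (3.32), from a peak of 139056–141442 on chromosome I that overlapped swr1Δ peaks outside the promoter, the nearest summit 1 bp away (2.01). FES1 was swr1Δ-only (2.2). The 5 histone promoters with a peak, of 10, were in both lists and in wild type. HTZ1, the H2A.Z gene, had 1.79 in eaf1Δ and 1.89 in swr1Δ, in overlapping peaks with the summits 849 bp apart.

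Genes of the mitochondrial ribosome did not follow those of the cytoplasmic ribosome. Of 67 genes 9 were shared, 16 eaf1Δ-only and 1 swr1Δ-only, so 23.9% were eaf1Δ-only beside 20.7% of all genes. At equal length 8 were shared, 13 eaf1Δ-only and 2 swr1Δ-only, so 19.4% were eaf1Δ-only beside 10.7% of all genes. MRPL23 (4.37), MRPL50 (3.16) and MRPS16 (2.78) were among the eaf1Δ-only genes, and MRPL15 (2.91) was the swr1Δ-only one. Oxidative phosphorylation had 7 of 37 genes shared (18.9%), 9 eaf1Δ-only (24.3%) and 1 swr1Δ-only (2.7%), where all genes had 14.5%, 20.7% and 3.22%. Summits lay within 15 of its genes in eaf1Δ (40.5%, against 34.9% of all genes) and within 1 in swr1Δ (2.7%, against 11.6%). The succinate dehydrogenase genes SDH1, SDH2, SDH3 and SDH4 were eaf1Δ-only (2.13, 1.77, 1.52 and 2.2), while CYC1, the cytochrome c gene, was shared (3.26 in eaf1Δ and 3.16 in swr1Δ). Of 57 ribosome biogenesis genes 3 were shared (5.26%, against 14.5% of all genes), 10 eaf1Δ-only (17.5%) and 2 swr1Δ-only (3.51%), the single-list shares being near those of all genes. RNA polymerase III and its factors had 2 of 23 genes shared (8.7%) and 5 eaf1Δ-only (21.7%, near the 20.7% of all genes). RPC34 (3.03) and RET1 (2.64) led these eaf1Δ-only genes.

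The other lists, which played no part in choosing the peaks, separated the classes. The wild-type list was the shortest of the 4, with 625 nuclear peaks beside 1886 eaf1Δ-only and 225 swr1Δ-only peaks, so its length limits the wild-type shares. Wild type had a peak at 158 eaf1Δ-only peaks (8.38%, 7.17–9.72) and at 94 swr1Δ-only peaks (41.8%, 35.3–48.5), and at 326 of the 1014 shared eaf1Δ peaks (32.1%, 29.3–35.1). At equal length the shares were 12.1% of eaf1Δ-only (9.78–14.6), 25.0% of swr1Δ-only (21.9–28.3) and 44.9% of shared eaf1Δ peaks (40.6–49.2). Ribosomal protein promoters carried part of the swr1Δ-only share, with wild-type peaks at 36 of 38. In gene bodies, wild type had a peak at 92 of 1462 eaf1Δ-only peaks (6.29%) and at 37 of 109 swr1Δ-only peaks (33.9%). At tRNA genes it had one at 5 of 30 swr1Δ-only peaks (16.7%). The yaf9Δ list, the longest of the 4 lists with 4522 nuclear peaks, held 84.9% of eaf1Δ-only peaks (83.2–86.5), 94.7% of swr1Δ-only peaks (90.9–97.2) and 99.2% of shared eaf1Δ peaks. In neither wild type nor yaf9Δ were 271 eaf1Δ-only peaks (14.4%) and 11 swr1Δ-only peaks (4.89%).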

How the data were processed

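The 4 deposited peak lists were made by the authors from pooled repeats. Per the submitters' processing notes, reads passed through fastp 0.21.0, BWA 0.7.15-r1140 and SAMtools 1.4, and MACS2 called the peaks. The deposited fold is the ratio of summit pileup to local background, and the deposited −log10 q ranks the peaks. The deposited score, 10 times −log10 q without decimals, was not used. The deposited −log10 p served for the background pileup, solved per peak with the Poisson formula where −log10 p was at most 250. The lowest solved value of each list is the one given. For the depth per sample, the control and the build, nothing was given in the sources used here. No genome sequence was used.

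Overlaps, counts and exact intervals were computed with Python 3.11.15, pandas 2.3.3, NumPy 2.4.6 and SciPy 1.17.1, and figures with matplotlib 3.10.9. Gene names and neighbours came from the RefSeq table of assembly R64, which held 6002 nuclear protein-coding and 275 tRNA genes. As a check of its fit, 76 eaf1Δ and 112 swr1Δ tRNA genes had a summit within 60 bp of their middle, and 0 to 14 had one when summits were shifted by 100 to 1000 bp. Each summit took 1 place, in the order rDNA, tRNA gene within 100 bp, chromosome end of 10 kb, ribosomal protein promoter, other promoter of 500 bp, gene body and elsewhere. A gene had a promoter peak when any peak overlapped those 500 bp, and whether such a peak overlapped the other list outside them was counted afterwards.

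The peak classes, the 27 gene lists and the tests were chosen with earlier results of these data known. RPP1 and MRP8, which match the name patterns of the ribosomal lists but are no ribosomal proteins, were taken out later, and 1 listed gene was not in the table. Genes were named by a rule: in each class the 10 peaks of highest −log10 q and the 10 of highest fold, members of short lists, up to 6 of longer lists with those that go against their list, single-list RNA genes, the deleted genes with SWC4 and YAF9, and the peaks at the cut to 1258 peaks. Other genes named were chosen after their values were seen. Alternatives were other cuts (by fold, at −log10 q 5 and at fold 2), 50% overlap, summits within 100 bp, merging of peaks under 200 bp apart, promoters of 250 and 1000 bp or by summit, tRNA windows of 0 and 500 bp, and ends of 20 kb. Genotypes were not tested against each other, and the motif counts planned for promoters were not run.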

Additional observations from a re-analysis of the deposited data

How the results depend on the processing

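With both lists cut by significance, 528 eaf1Δ and 542 swr1Δ peaks were shared, and 730 were eaf1Δ-only and 716 swr1Δ-only. Summits in gene bodies were then 69.3% of eaf1Δ-only and 61.5% of swr1Δ-only peaks, and wild-type peaks lay at 12.1% and 25.0% of them. There were 3 eaf1Δ-only tRNA genes, 19 shared and 1 eaf1Δ-only ribosomal protein promoters. With the eaf1Δ list cut by fold, 492 eaf1Δ and 506 swr1Δ peaks were shared, 766 were eaf1Δ-only and 752 swr1Δ-only, with gene-body summits in 68.8% of eaf1Δ-only and 62.6% of swr1Δ-only peaks, wild-type peaks at 26.6% of swr1Δ-only peaks, and 1 eaf1Δ-only ribosomal protein promoter. With −log10 q of at least 5, 672 eaf1Δ and 670 swr1Δ peaks were shared, and 40.5% of swr1Δ-only summits lay in gene bodies. With fold of at least 2, 307 eaf1Δ and 307 swr1Δ peaks were shared and 766 were eaf1Δ-only. Gene-body summits were then 67.6% of eaf1Δ-only and 9.24% of swr1Δ-only peaks, wild-type peaks lay at 3.66% of eaf1Δ-only and 25.5% of swr1Δ-only peaks, and 19 ribosomal protein promoters were shared and 0 eaf1Δ-only. With summits at most 100 bp apart, 538 peaks were swr1Δ-only, of which 19.5% had a wild-type peak. The eaf1Δ-only ribosomal protein promoters numbered 1 with 250 bp, 8 with 1000 bp, where 47 were shared, and 0 by summit. The eaf1Δ-only tRNA genes numbered 3 with a window of 0 bp and 18 with 500 bp. With ends of 20 kb, 75.3% of eaf1Δ-only summits lay in gene bodies. Apart from the cuts, which leave fewer peaks by construction, the cause was not tested.

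Overlap of 50% of the shorter peak moved none of these results past its limit. Merging changed nothing, since peaks of a list lay at least 250 bp apart in eaf1Δ and 253 bp in swr1Δ. Of 432 values for single gene lists, 283 stayed within their limits and 149 moved. No paired analysis was possible because each genotype has 1 pooled list, and for the same reason no repeat was left out. Motif counts were not run, as no promoter sequence was used here. Depth is unknown, and the lowest background pileup of 64.3 in eaf1Δ and 54.4 in swr1Δ differs, so a missing peak does not show that Swc4 is absent.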

Other observations

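At some loci the lists differed in the number of peaks. At HTA1 and HTB1, the divergent genes of H2A and H2B, the eaf1Δ list had a peak on each side, at 914816–915176 and 915483–915748 of chromosome IV, and the swr1Δ list had 1 peak at 914925–915181, which overlapped the first of these with the summits 6 bp apart. At HYP2, the gene of translation factor eIF5A, a single eaf1Δ peak of 85035–86685 on chromosome V (fold 2.28) reached over MCM3, and it overlapped separate swr1Δ peaks at 85032–86059 (fold 7.22) and 86376–86693 (fold 1.78). TEF1 and TEF2, which encode the same translation elongation factor, differed: TEF1 had a promoter peak in both lists (2.19 in eaf1Δ and 3.43 in swr1Δ) and TEF2 in swr1Δ only (4.02).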
